A study of Mus musculus with 797 samples.

Results

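The genes described here are the cadherins and the non-clustered protocadherins of mouse brain nuclei. They were chosen by name alone, as every row of the count table whose symbol is Cdh or Pcdh followed by a number, with an optional final x for Pcdh11x. The rule found 35 genes among 32285 gene rows, 23 of them cadherins and 12 protocadherins. Each nucleus came from a C57Bl/6J mouse that had received 1 AAV vector in the brain-penetrant capsid PHP.eB at 5e11 vector genomes, 3 to 4 weeks earlier. The vector drove H2B-SYFP2, in which histone H2B carries a yellow fluorescent protein, and single YFP-positive nuclei labelled striatum were sorted and made into SMART-Seq v4 libraries of polyA RNA. The 797 nuclei fall under 20 vector labels: 16 AiE enhancers, the DLX2.0 and hI56i elements of the Dlx genes, the human synapsin 1 promoter hSyn1 and the viral promoter CMV. All groups share the strain, capsid and reporter, and no nucleus without a vector was analysed here. The labels give neither age nor sex and name no animal, so a vector label was counted as 1 sample. Which nuclei carry the reporter depends on the enhancer and on the sort, so the groups are selections of cells and not a survey of the tissue.

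Cadherins are cell surface proteins whose extracellular repeats bind cadherins on a neighbouring cell in the presence of calcium. Classical cadherins of type I and type II carry a tail that binds catenins, which join the contact to actin, and in cortex different neuron types use different type II members. The delta protocadherins lack the catenin-binding tail. Several of the delta-2 group, such as Pcdh10, Pcdh17 and Pcdh19, bind the WAVE actin regulator through their tails. The clustered protocadherins, which neurons pick by promoter choice, carry other symbols and are outside the rule.

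After 16 nuclei with fewer than 50000 reads or fewer than 1000 genes were left out, 781 remained, with a median of 292895 reads. Of these, 385 had at least 10 CPM of the glutamate transporter gene Slc17a7 and less than 10 CPM of Gad1 and Gad2 together (the Slc17a7 class), and 310 had the reverse (the Gad class). CPM is reads per 1e6 gene reads of the nucleus. A further 50 nuclei passed for both and 36 for neither, and they were left out of the class comparisons. The Slc17a7 class was split by its highest layer gene into 75 Cux2, 75 Rorb and 50 Foxp2 nuclei, and the Gad class by its highest interneuron gene into 137 Pvalb, 104 Sst and 52 Adarb2 nuclei. The classes matched other neuronal markers: Neurod6 was read in 47.3% of the Slc17a7 class and 1.61% of the Gad class, and Erbb4 in 0.519% and 66.8%. Of 6 markers of spiny projection neurons, the main neurons of the labelled striatum, Adora2a and Isl1 had no read in either class. Drd2 was read in 0% of the Slc17a7 class and 1.61% of the Gad class, Drd1 in 3.90% and 8.39%, Rgs9 in 12.5% and 10.3%, and Ppp1r1b in 16.6% and 0.323%. Mog, Aqp4, P2ry12 and Cldn5, which define oligodendrocytes, astrocytes, microglia and endothelial cells, were each read in at most 2.34% of either class, while the abundant myelin RNA Mbp was read in 24.7% of the Slc17a7 class and 17.7% of the Gad class. By the first part of the library name the nuclei fall into 3 sets, called A, B and C here, of 516, 178 and 87 nuclei. The labels do not say what a set is. Mitochondrial reads averaged 1.17% of a nucleus in set B, against 0.0161% in set A and 0.0144% in set C, so the main comparisons were made within set A.

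Letters around the RefSeq starts are shown for genes whose levels differed between the classes below. These are Cdh6, Cdh8 and Cdh10, which were higher in the Slc17a7 class, and Cdh9, which was lower. The promoters were taken from RefSeq (build GRCm38.p6, 250 bases before to 50 bases after the start, 5′ to 3′ on the gene's strand). Promoters of 22 of the 35 genes were matched by symbol. Capitals mark CANNTG, the E-box core bound by basic helix-loop-helix factors, which reads the same on both strands. The regions are chr15:13173626-13173925 (minus strand), chr8:99416422-99416721 (minus strand), chr15:18820079-18820378 (plus strand) and chr15:16728665-16728964 (plus strand). Starts named in this paragraph are those of RefSeq. By the gene coordinates used elsewhere here, Cdh10 starts at 18818947 and Cdh9 at 16728756. The Cdh10 region thus lies inside the annotated gene, and the Cdh9 region spans the annotated start.
Cdh6: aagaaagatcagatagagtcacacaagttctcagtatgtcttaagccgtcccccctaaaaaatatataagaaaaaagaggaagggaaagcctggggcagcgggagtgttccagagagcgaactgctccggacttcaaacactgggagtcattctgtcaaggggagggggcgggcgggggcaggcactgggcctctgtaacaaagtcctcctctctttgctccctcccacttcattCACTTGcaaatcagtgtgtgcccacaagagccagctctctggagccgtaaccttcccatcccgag
Cdh8: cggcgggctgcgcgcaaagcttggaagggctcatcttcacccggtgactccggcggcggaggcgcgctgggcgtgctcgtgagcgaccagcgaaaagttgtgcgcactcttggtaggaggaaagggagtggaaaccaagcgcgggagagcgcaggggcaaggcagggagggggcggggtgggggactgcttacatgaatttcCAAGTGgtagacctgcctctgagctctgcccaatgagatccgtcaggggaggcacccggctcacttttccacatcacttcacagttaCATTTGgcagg
Cdh10: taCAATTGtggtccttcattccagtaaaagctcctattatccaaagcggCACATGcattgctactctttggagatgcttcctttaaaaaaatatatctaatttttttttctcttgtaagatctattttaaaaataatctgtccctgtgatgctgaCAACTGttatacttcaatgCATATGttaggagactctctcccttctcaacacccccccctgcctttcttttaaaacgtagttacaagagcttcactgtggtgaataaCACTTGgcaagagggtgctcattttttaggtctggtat
Cdh9: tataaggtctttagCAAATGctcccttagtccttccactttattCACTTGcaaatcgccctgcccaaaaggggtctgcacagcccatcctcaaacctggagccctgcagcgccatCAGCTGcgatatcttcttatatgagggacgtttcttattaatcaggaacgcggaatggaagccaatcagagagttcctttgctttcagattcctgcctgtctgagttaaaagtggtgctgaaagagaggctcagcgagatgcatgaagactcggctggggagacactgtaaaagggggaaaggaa
The Cdh6 promoter held 1 match, that of Cdh8 2, that of Cdh10 5 and that of Cdh9 3. A match occurred in 72.1% of 27025 mouse promoters of the same length, and in 13 of the 22 promoters of these genes, so its presence sets none of them apart. Cdh6 and Cdh9 shared a stretch of 15 bases, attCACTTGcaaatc, which began 18 bases before the start of Cdh6 and 209 bases before that of Cdh9. It was picked as the longest stretch shared by any pair of these promoters. The stretch was held, on either strand, by 2 of the 27025 promoters, those of Cdh6 and Cdh9 themselves, so a count below 2 was not possible. These are matches of letters only, and the 2 genes that share the stretch differed between the classes in opposite directions.

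Of the 35 genes, 24 were read in at least 20 nuclei. Another 6 were read in 1 to 19 nuclei, namely Cdh24 (19), Cdh15 (7), Cdh3 (4), Cdh19 (4), Cdh23 (2) and Pcdh12 (1). The remaining 5 had no read in any of the 781 nuclei, so that a share of up to 0.384% remains possible: Cdh1, the epithelial E-cadherin, Cdh5, the endothelial VE-cadherin, Cdh16 and Cdh17, which belong to kidney and gut epithelium, and Cdh26. To compare shares across depths, each nucleus was thinned to 100000 reads, which left out 5 nuclei. A thinned nucleus held a median of 6 of the genes (quartiles 4 and 8). The median was 7 in Sst nuclei and 4 in Adarb2 nuclei, while the median number of all genes per thinned nucleus was 2689 in Sst nuclei and 2348.5 in Adarb2 nuclei. Exact 95% intervals below cover counting error only.

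Pcdh9, a delta-1 protocadherin (ENSMUSG00000055421, mm10 chromosome 14, 93013410 to 93890679), was read in the most nuclei, 83.8% of thinned Slc17a7 nuclei (79.7 to 87.4) and 51.3% of thinned Gad nuclei (45.6 to 56.98). Shares of different genes are not compared as levels, since a longer transcript gives more reads. Among type II cadherins, Cdh12 was read in 59.3% of Slc17a7 nuclei and 40.6% of Gad nuclei, Cdh11 in 56.9% and 40.6%, and Cdh10 in 48.0% and 39.7%. Cdh2, the neural type I cadherin, was read in 46.2% of Slc17a7 nuclei and 20.6% of Gad nuclei. The delta-2 protocadherin Pcdh10 was nearly even, at 50.4% and 46.5%. Read mainly in the Gad class were Cdh13, which has no tail and is held by a lipid anchor (8.62% of Slc17a7 nuclei, 45.2% of Gad nuclei), Cdh9 (9.66% and 40.3%) and Pcdh18 (0 of 383 and 26 of 310 nuclei). The 5 type II genes Cdh6, Cdh9, Cdh10, Cdh12 and Cdh18 lie on chromosome 15 between 13028701 and 23474418 (mm10).

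**Figure D1:**
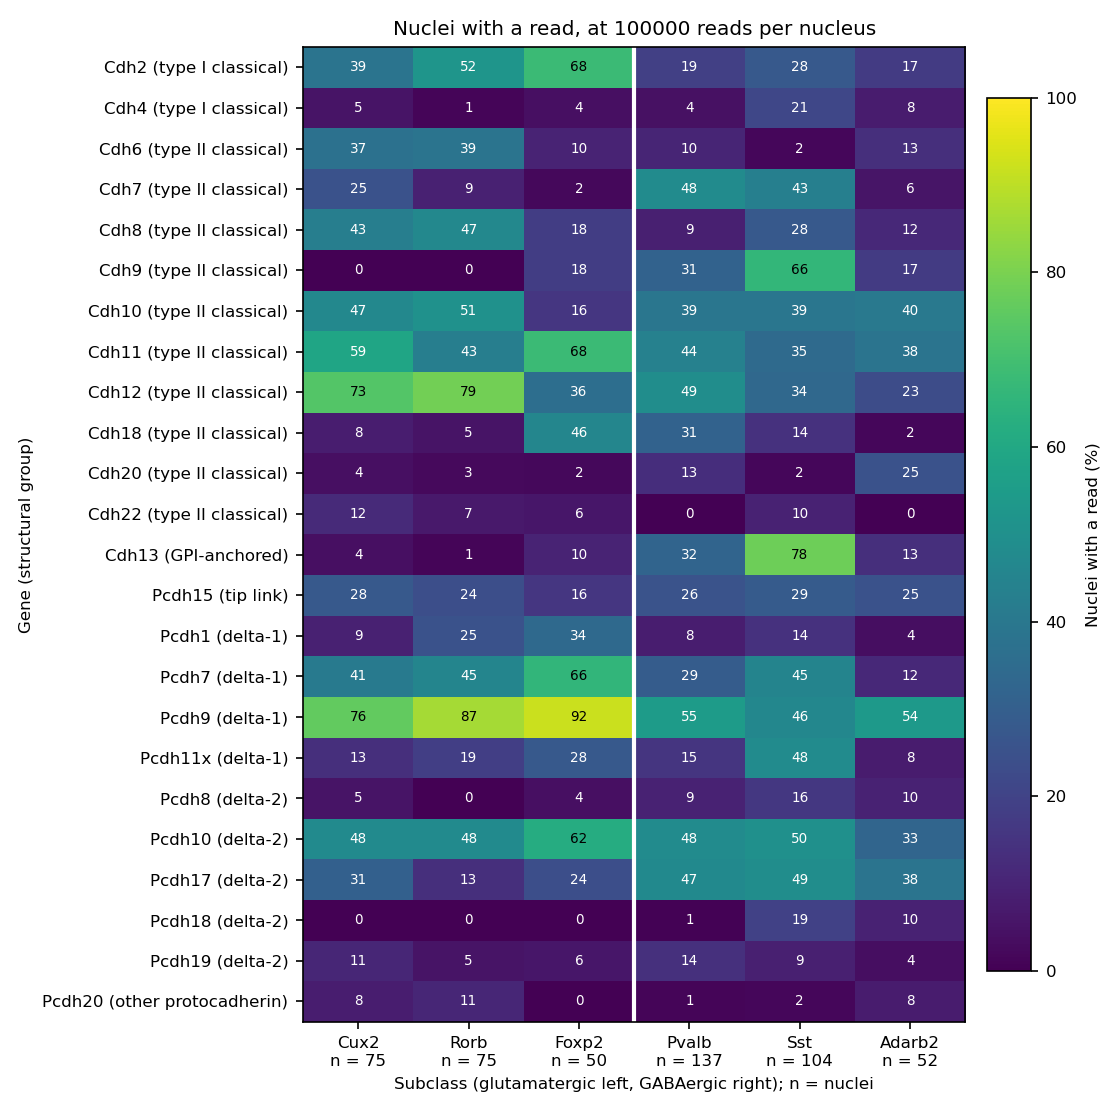
Share of nuclei with at least 1 read (%, colour and printed value) of the 24 genes read in at least 20 nuclei, by subclass, with each nucleus thinned to 100000 reads; rows name the gene and its structural group. Cdh13 and Cdh9 peak in Sst nuclei (77.9% and 66.3%), Cdh12 in Rorb and Cux2 nuclei (78.7% and 73.3%), and Cdh18 in Foxp2 nuclei (46.0%).

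The first comparison asked which genes of the family differ between the glutamatergic and the GABAergic class. Reads of each class were summed per vector label in set A, where at least 5 nuclei allowed it, which gave 13 Slc17a7 sums and 11 Gad sums; 4 vector labels gave both. Higher in the Slc17a7 class were Pcdh9, Cdh2, Cdh8, Cdh6, Cdh11 and Cdh10, and lower were Cdh13 and Cdh9. These 8 passed edgeR's quasi-likelihood test at a Benjamini-Hochberg adjusted p under 0.05, out of 22 of the 35 genes that passed the filter on low counts. Over all 10858 genes tested, 4.12% were called higher and 3.29% lower, against 6 and 2 of these 22. The p-values measure the spread between vector labels, which may be technical, and in sums of nuclei fewer expressing nuclei and less RNA per nucleus cannot be told apart. The median log2 difference was 0.0176 over the 22 genes and -0.0698 over all genes tested. Most vector labels gave sums of 1 class only, so class and vector label cannot be fully told apart. With the vector label as a block, none of the 8 passed, in a fit that rests on the 4 labels with both sums.

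Pcdh9 had between 206 and 1155 CPM with a median of 606 in Slc17a7 sums, and between 158 and 447 CPM with a median of 247 in Gad sums. Of the Slc17a7 sums, 12 of 13 lay above every Gad sum. The log2 difference was 1.38 ± 0.20 (SE; edgeR adjusted p = 7.78e-06). Cdh2 (ENSMUSG00000024304), N-cadherin of neuronal contacts, had between 21.4 and 235 CPM with a median of 119 in Slc17a7 sums, and between 3.64 and 71.2 CPM with a median of 21.6 in Gad sums. The groups overlapped, with 10 of 13 Slc17a7 sums above all Gad sums, and the log2 difference was 2.19 ± 0.47 (edgeR adjusted p = 0.00189).

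The type II genes that were higher in the Slc17a7 class all overlapped with the Gad class in some vector labels. Cdh6 (ENSMUSG00000039385, chromosome 15, 13028701 to 13173675) had between 0.171 and 295 CPM with a median of 64.5 in Slc17a7 sums, and between 0 and 27.4 CPM with a median of 3.27 in Gad sums. Its difference of 3.87 ± 0.99 (edgeR adjusted p = 0.0106) was carried by 11 Slc17a7 sums at 16.8 CPM or more, while the AiE0387m and DLX2.0 sums held 1 read each. Cdh8 (ENSMUSG00000036510, chromosome 8, 99024471 to 99416471) had between 18.3 and 261 CPM with a median of 125 in Slc17a7 sums, and between 5.18 and 66.3 CPM with a median of 35.997 in Gad sums. It differed by 1.81 ± 0.42 (edgeR adjusted p = 0.00503), with 10 of 13 Slc17a7 sums above all Gad sums. Cdh11 had 57.2 to 302 CPM (median 138) in Slc17a7 sums and 7.77 to 131 CPM (median 66.3) in Gad sums, a difference of 1.26 ± 0.35 (edgeR adjusted p = 0.0198). Cdh10 had 46.9 to 232 CPM (median 180.1) in Slc17a7 sums and 20.2 to 154 CPM (median 67.2) in Gad sums, a difference of 1.14 ± 0.32 (edgeR adjusted p = 0.0226). For both, 8 of 13 Slc17a7 sums lay above the highest Gad sum. The Cdh10 call was lost without AiE0410m (edgeR adjusted p = 0.0525), without AiE0475m (0.0552) and without AiE0743m_3xC2 (0.0572).

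Cdh13 (ENSMUSG00000031841, chromosome 8, 118283733 to 119324921) was the only one of the 8 called genes whose groups did not overlap. The share of all genes tested whose groups stayed apart was not counted. It had between 0 and 121 CPM with a median of 42.5 in Slc17a7 sums, 3 of which held no read, and between 125 and 537 CPM with a median of 313 in Gad sums. The log2 difference was -2.88 ± 0.70 (edgeR adjusted p = 0.00726). Cdh9 (ENSMUSG00000025370, chromosome 15, 16728756 to 16857094), a type II cadherin, had between 0 and 73.4 CPM with a median of 26.8 in Slc17a7 sums, and between 29.2 and 433 CPM with a median of 156 in Gad sums. It differed by -2.77 ± 0.72 (edgeR adjusted p = 0.0124), and 9 of 11 Gad sums lay above every Slc17a7 sum. All 8 differences kept their sign within set B (8 Slc17a7 and 6 Gad sums) and within set C (5 and 3 sums), where none of the 8 passed the test.

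**Figure D2:**
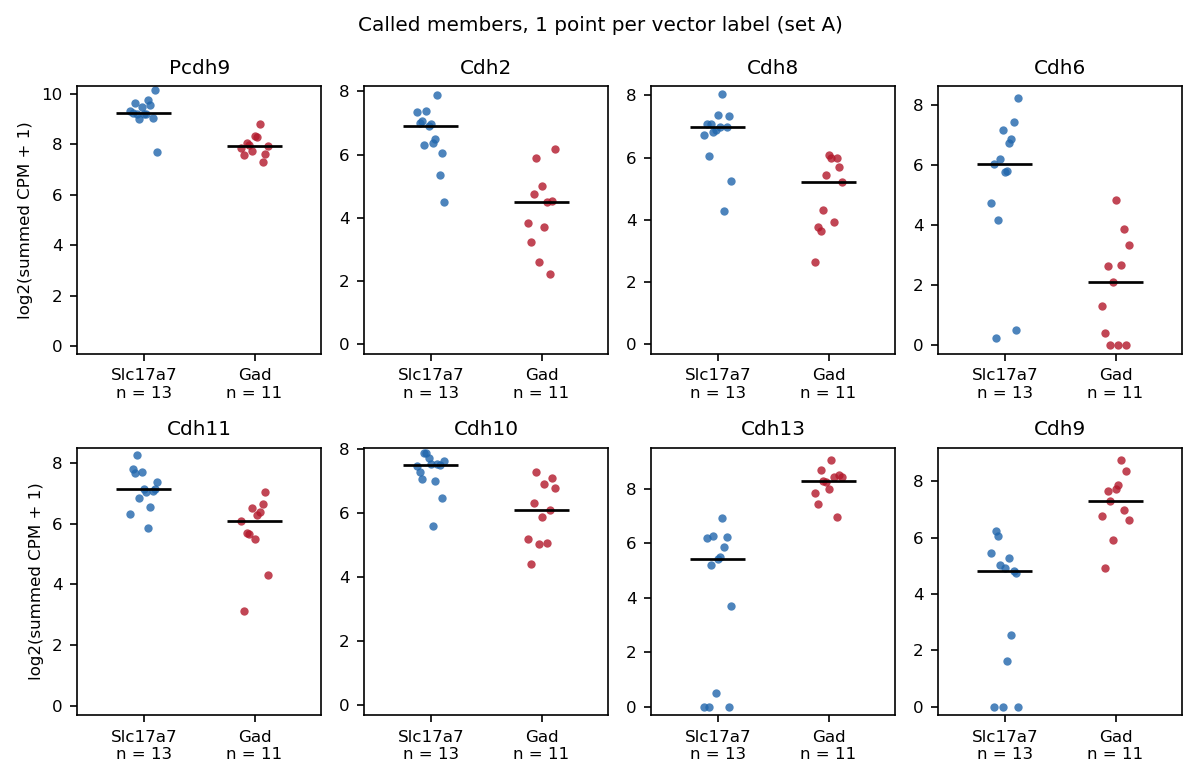
Summed level, as log2(CPM + 1), of the 8 called genes in 13 Slc17a7 sums (left) and 11 Gad sums (right) of library set A; each point is 1 vector label and the line is the median. Among these 8 genes only the groups of Cdh13 stay apart, with every Gad sum at 125 CPM or more and every Slc17a7 sum at 121 CPM or less.

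The other 14 tested genes did not pass. Nearest to the threshold was Cdh4, the retinal type I cadherin, with 0 to 6.70 CPM (median 0.151) in Slc17a7 sums and 0 to 129 CPM (median 10.005) in Gad sums (log2 difference -3.53 ± 1.15, edgeR adjusted p = 0.0584). Among delta-1 protocadherins, Pcdh7 had 47.9 to 217 CPM (median 147) in Slc17a7 sums and 19.9 to 179 CPM (median 70.2) in Gad sums (0.95 ± 0.33, edgeR adjusted p = 0.0840). Pcdh11x had 0 to 75.6 CPM (median 34.6) and 12.1 to 173 CPM (median 83.6), with an edgeR adjusted p of 0.206. In the delta-2 group, Pcdh17 had 5.15 to 103 CPM (median 66.1) in Slc17a7 sums and 52.4 to 199 CPM (median 109) in Gad sums (-1.14 ± 0.39, edgeR adjusted p = 0.0795). Pcdh10, a delta-2 gene of WAVE-binding tails, differed by 0.09 ± 0.32 (edgeR adjusted p = 0.962). Cdh12, the type II gene read in most Slc17a7 nuclei, differed by 0.61 ± 0.34 (edgeR adjusted p = 0.390). Pcdh18 was below the filter: it had 2 reads in all Slc17a7 sums and 1988 in all Gad sums. Without the filter it was called as lower (edgeR adjusted p = 2.11e-06), in a fit that called 12 genes of the family and 21.7% of 20203 genes. A model on mean log2(CPM + 1) per nucleus (limma) called 18 genes of the family and 26% of all genes tested. DESeq2 called 11 genes of the family and 11.3% of all genes.

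Genes whose products work with cadherins were counted in the same fit. None of the 8 tested catenins, which link classical cadherins to actin, passed (median log2 difference 0.152). Of the 4 tested nectin, afadin and vinculin genes, 1 was higher: Nectin3, a nectin of synaptic junctions, by 3.28 ± 0.999 (edgeR adjusted p = 0.0384). Of the 6 WAVE complex genes, 1 was higher: Wasf1, which encodes WAVE1, by 0.93 ± 0.24 (edgeR adjusted p = 0.0104). Of the 7 tested Fat, Dchs, Celsr and calsyntenin genes, 1 was lower: Clstn3, a synaptic calsyntenin, by -1.11 ± 0.33 (edgeR adjusted p = 0.0363). The medians of these last 3 lists were -0.260, 0.539 and 0.173, beside -0.0698 over all genes tested. None of the 4 cytoplasmic and 6 mitochondrial genes tested passed.

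Within the Gad class, Cdh13 was higher in Sst interneurons than in the mean of the other 2 subclasses. Cdh18 was higher in Pvalb and lower in Adarb2 interneurons, again against the mean of the other 2. Each subclass was set against the mean of the other 2 in sums of at least 3 nuclei (11 Pvalb, 11 Sst and 7 Adarb2 sums in set A), and 21 genes of the family passed the filter. By edgeR, 1 gene was higher in Sst sums, 1 was higher in Pvalb sums and 1 was lower in Adarb2 sums. Over all 10417 genes tested, 0.806% were higher in Sst sums, 1.77% higher in Pvalb sums and 1.59% lower in Adarb2 sums.

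Cdh13 had between 27.2 and 1201 CPM with a median of 734 in Sst sums, against 12.9 to 310.5 CPM (median 110.5) in Pvalb sums and 0 to 478 CPM (median 0) in Adarb2 sums. All Sst sums but AiE0410m, which held 27.2 CPM, lay above all Pvalb sums, and the one Adarb2 sum near the Sst range was AiE0450h at 478 CPM. The difference was 2.76 ± 0.75 (edgeR adjusted p = 0.04999), at the threshold. Leaving out any vector label but AiE0410m or AiE0450h moved the adjusted p to between 0.0519 and 0.0881. Without AiE0450h the difference was 4.63 (edgeR adjusted p = 0.000224), and with at least 5 nuclei per sum it was 1.99 (edgeR adjusted p = 0.238). By share, Cdh13 was read in 77.9% of Sst nuclei (68.7 to 85.4), 32.1% of Pvalb nuclei (24.4 to 40.6) and 13.5% of Adarb2 nuclei (5.59 to 25.8).

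Cdh9 had between 0 and 1242 CPM with a median of 390.0 in Sst sums, against 0 to 184 CPM (median 55.4) in Pvalb sums and 0 to 353 CPM (median 52.3) in Adarb2 sums. Of the Sst sums, 9 of 11 exceeded every Pvalb sum, and AiE0410m held no read. Its difference of 2.496 ± 0.75 did not pass (edgeR adjusted p = 0.0884). It passed without AiE0600m (edgeR adjusted p = 0.0442), with DESeq2 (adjusted p = 0.0290) and with all 3 sets (edgeR adjusted p = 0.0340). It also passed in sums of at least 5 nuclei (edgeR adjusted p = 0.00143), which left 7 Sst and 2 Adarb2 sums. With the vector label as a block, with RLE size factors or in nuclei with exactly 1 subclass gene, Cdh9 did not pass. Pcdh11x, an X-linked delta-1 protocadherin, had 0 to 374 CPM (median 178) in Sst sums, 0 to 89.9 CPM (median 10.2) in Pvalb sums and 0 to 149 CPM (median 0) in Adarb2 sums (edgeR adjusted p = 0.216). Reads of Pcdh18 were found in 19.2% of Sst nuclei, 0.730% of Pvalb nuclei and 9.62% of Adarb2 nuclei. Pcdh11x passed without AiE0390m, the one vector label with reads in Adarb2 sums, as higher in Sst sums (edgeR adjusted p = 0.00217) and lower in Adarb2 sums (0.00473). Pcdh18 passed without AiE0450h, as higher in Sst sums (0.0419), higher in Adarb2 sums (0.0457) and lower in Pvalb sums (0.00522). Counted over all reads, in 60 of 104 Sst nuclei both Cdh13 and Cdh9 were read, in 21 only Cdh13, in 9 only Cdh9 and in 14 neither. In Pvalb nuclei both were read in 15 of 137. Cdh6 was scarce in Sst sums, which held 2 reads in all (0.0984 CPM pooled), against 11.3 CPM in pooled Pvalb sums and 7.57 CPM in pooled Adarb2 sums (edgeR adjusted p = 0.0845).

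Cdh18 (ENSMUSG00000040420, chromosome 15, 22549022 to 23474418), a type II cadherin, had between 8.27 and 129 CPM with a median of 55.2 in Pvalb sums, with reads in all 11. It had 0 to 107 CPM (median 7.08) in Sst sums, 5 of which held no read, and no read in any of the 7 Adarb2 sums. Both differences passed, Pvalb against the others with an edgeR adjusted p of 0.00719 and Adarb2 against the others with 0.00878. Sst sums were also higher than the others, without passing (edgeR adjusted p = 0.0659). The Sst difference passed with DESeq2 (adjusted p = 0.0326) and with all 3 sets (edgeR adjusted p = 0.0194), but not with limma or the block. The others include the Adarb2 sums at 0 in both the Pvalb and the Sst difference, and Pvalb was not tested against Sst alone. With the vector label as a block, the Pvalb difference passed (edgeR adjusted p = 0.0156) and the Adarb2 difference did not. The fitted sizes depend on the group at 0 and are not given. The Adarb2 sums held 0 reads over 32 nuclei, beside pooled levels of 63.9 CPM in Pvalb sums and 30.5 CPM in Sst sums. No limit on the fold is given, since reads of 1 nucleus are not independent and may be PCR copies. With sums of at least 5 nuclei, which leave 2 Adarb2 sums, neither passed (edgeR adjusted p = 0.13 for Pvalb and 0.174 for Adarb2). Over all sets, 1 of 52 Adarb2 nuclei held a Cdh18 read.

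Cdh7, Cdh20 and Pcdh19 were uneven among interneurons without passing in the main fit. Cdh7, a type II cadherin, had 0 to 75.7 CPM (median 0) in Adarb2 sums, 5 of which held no read, against 69.4 to 273 CPM (median 138) in Pvalb sums and 0 to 337 CPM (median 168) in Sst sums (edgeR adjusted p = 0.0745). DESeq2 (adjusted p = 0.00216) and limma (adjusted p = 0.00127) called Cdh7 as lower in Adarb2 sums. With edgeR it was called with all 3 sets (adjusted p = 0.0107), without the filter (0.0357) and without AiE0450h (0.0130). It was not called with the block, with RLE size factors or in nuclei with exactly 1 subclass gene. Without AiE0450h, Cdh13 was called as lower in Adarb2 sums too (0.00210). Cdh20 had 0.672 to 124 CPM (median 24.4) in Adarb2 sums, against 0 to 49.6 CPM (median 4.19) in Pvalb sums and 0 to 48.9 CPM (median 0) in Sst sums, 9 of which held no read (edgeR adjusted p = 0.756). Limma alone called Cdh20, as higher in Adarb2 sums (adjusted p = 0.00733) and lower in Sst sums (0.0342). Pcdh19, the X-linked delta-2 gene of an epilepsy syndrome in humans, had 0 to 143 CPM (median 14.97) in Pvalb sums, 0 to 6.19 CPM (median 0) in Sst sums and 0 to 64.4 CPM (median 0) in Adarb2 sums (edgeR adjusted p = 0.242, and 0.0218 without DLX2.0). As higher in Pvalb sums it also passed with the block (edgeR adjusted p = 0.0438) and in nuclei with exactly 1 subclass gene (0.0194), but not with DESeq2 or limma. Pooled over sums, Cdh20 had 35.1 CPM in Adarb2, 12.8 CPM in Pvalb and 5.76 CPM in Sst nuclei, and Pcdh19 had 25.8 CPM in Pvalb, 8.50 CPM in Adarb2 and 1.18 CPM in Sst nuclei. Among partner genes, Fat3, a giant cadherin, passed as higher in Sst sums (edgeR adjusted p = 0.0410) and lower in Adarb2 sums (0.0329), and no catenin, nectin or WAVE gene passed in any of the 3 comparisons. The mitochondrial gene mt-Nd1 was also higher in Sst sums (edgeR adjusted p = 0.0312) and lower in Adarb2 sums (0.0355), 1 of 6 tested mt- genes in each, and its part in these differences was not tested.

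**Figure D3:**
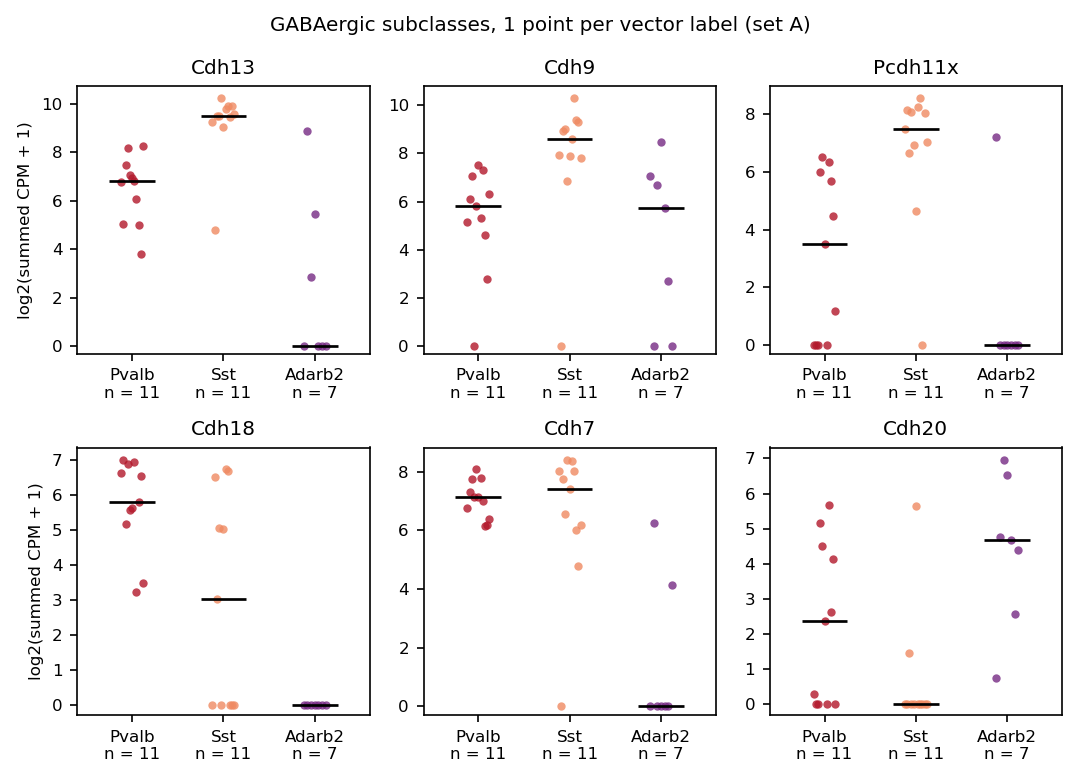
Summed level, as log2(CPM + 1), of 6 genes in 11 Pvalb, 11 Sst and 7 Adarb2 sums of library set A; each point is 1 vector label and the line is the median. Cdh18 is at 0 in all 7 Adarb2 sums, and Cdh13 has a median of 734 CPM in Sst sums.

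Within the Slc17a7 class, Foxp2 nuclei, chosen by a gene of deep cortical layers, held more reads of Cdh18 and fewer of Cdh6, Cdh7, Cdh10 and Cdh12 than Cux2 and Rorb nuclei, which were chosen by genes of upper and middle layers. None of these differences passed in the main fit, which has no term for the vector label. Of the vector labels, 8 gave sums of more than 1 of these subclasses. The sums were small (6 Cux2, 7 Rorb and 7 Foxp2 sums of 3 to 9 nuclei), and 15 genes of the family were tested. By edgeR 0 were called in each of the 3 comparisons, where 0.406% of 7878 genes were called for Foxp2 and 0.0381% each for Cux2 and for Rorb. At an unadjusted p under 0.05, 6 of the 15 differed for Foxp2, 2 for Cux2 and 1 for Rorb, where 6.36%, 4.43% and 4.65% of all genes tested did. The Rorb count is near its background. DESeq2 called 3 for Foxp2 (Cdh6, Cdh7 and Cdh18) and 0 for Cux2 or Rorb, and limma called 3 for Foxp2 (Cdh10, Cdh12 and Cdh18) and 0 for the other two. For Foxp2, DESeq2 called 3.71% and limma 1.82% of all genes tested.

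Cdh18 had between 18.001 and 238 CPM with a median of 117 in Foxp2 sums, against 0 to 10.9 CPM (median 2.15) in Cux2 sums and 0 to 23.9 CPM (median 0) in Rorb sums. Reads were present in all 7 Foxp2 sums, 3 of 6 Cux2 sums and 1 of 7 Rorb sums (edgeR p = 0.00739, adjusted 0.204). With all 3 sets the gene was called (edgeR adjusted p = 0.00819). Cdh6 had 0 to 2.37 CPM (median 0) in Foxp2 sums, against 0 to 321 CPM (median 139) in Cux2 sums and 0 to 186 CPM (median 0.789) in Rorb sums (edgeR adjusted p = 0.104). Cdh7 had no read in any Foxp2 sum, against 0 to 116 CPM (median 43.1) in Cux2 sums and 0 to 237 CPM (median 54.2) in Rorb sums (edgeR adjusted p = 0.106). For both genes the Foxp2 sums sat at or near 0 and the other sums spread from 0 upwards. Cdh10 was read in 1 of 7 Foxp2 sums, AiE0401h at 154 CPM, against 46.6 to 209.5 CPM (median 170.4) in Cux2 sums and 39.9 to 264 CPM (median 166) in Rorb sums. The Cdh10 difference for Foxp2 had an edgeR adjusted p of 0.559. With the vector label as a block, Cdh10 was called as lower in Foxp2 (edgeR adjusted p = 0.0191). Leaving out AiE0401h left every Foxp2 sum at 0. Cdh10 was then called as lower in Foxp2 (edgeR adjusted p = 0.000713), higher in Cux2 (0.0163) and higher in Rorb (0.0294). Cdh12 had 0 to 335 CPM (median 0) in Foxp2 sums, 4 of which held no read, against 87.8 to 309 CPM (median 212) in Cux2 sums and 157 to 559.5 CPM (median 406) in Rorb sums. Its difference for Foxp2 had an edgeR adjusted p of 0.578, and 0.0374 with the vector label as a block.

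Shares of nuclei over all 3 sets rest on more nuclei and carry no test. Cdh18 was read in 46.0% of Foxp2 nuclei (31.8 to 60.7), against 8% of Cux2 nuclei (2.99 to 16.6) and 5.33% of Rorb nuclei (1.47 to 13.1). Cdh12 was read in 78.7% of Rorb nuclei (67.7 to 87.3), 73.3% of Cux2 nuclei (61.9 to 82.9) and 36% of Foxp2 nuclei (22.9 to 50.8). Cdh9 was read in 9 of 50 Foxp2 nuclei, against 0 of 75 Cux2 and 0 of 75 Rorb nuclei; a count of 0 of 75 allows a share of up to 4.00%. Pcdh9 was read in 92.0% of Foxp2 nuclei, 76.0% of Cux2 nuclei and 86.7% of Rorb nuclei, and Cdh2 in 68.0%, 38.7% and 52.0%. Cdh6 and Cdh8 had overlapping intervals in Cux2 and Rorb nuclei, at 37.3% and 38.7% for Cdh6 and 42.7% and 46.7% for Cdh8. Of 385 Slc17a7 nuclei, 8 held reads of both Cdh6 and Cdh9, 116 of Cdh6 only and 29 of Cdh9 only.

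**Figure D4:**
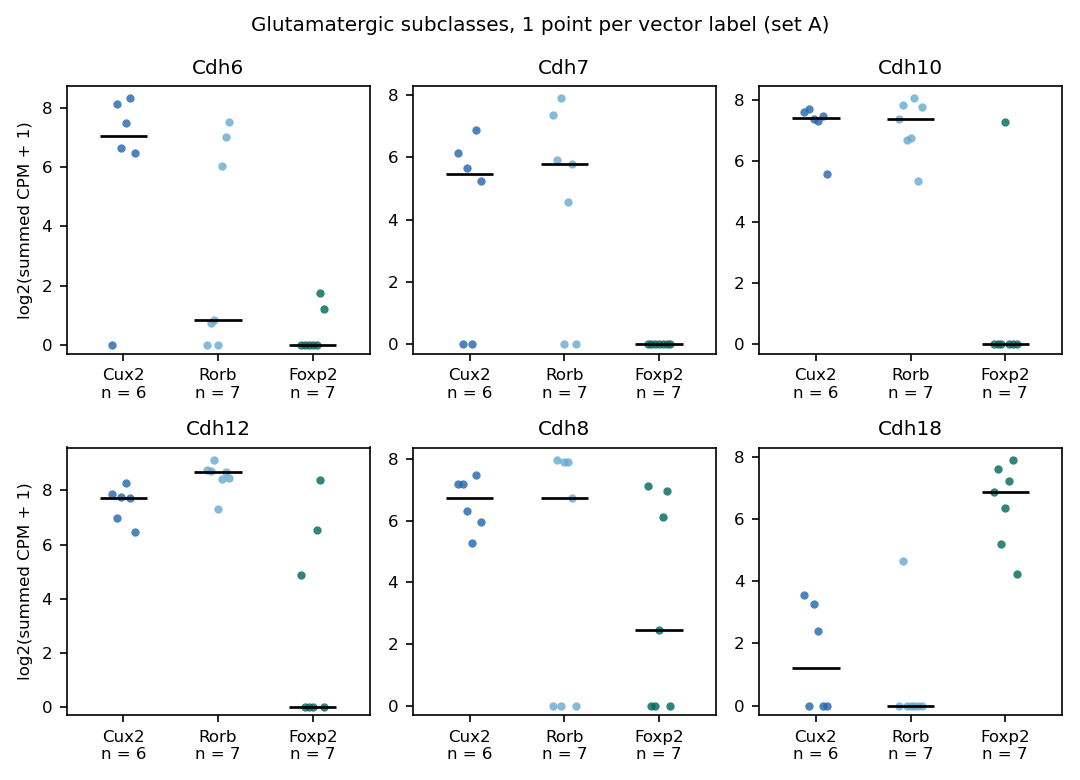
Summed level, as log2(CPM + 1), of 6 type II cadherin genes in 6 Cux2, 7 Rorb and 7 Foxp2 sums of library set A; each point is 1 vector label and the line is the median. Foxp2 sums hold Cdh18 in all 7 and Cdh7 in none, and Cdh10 is read in 1 of 7 Foxp2 sums.

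Values also differed between vector labels within 1 class, and since each is 1 sample they carry no test. The mean log2(CPM + 1) of Pcdh9 in the Slc17a7 class ran from 3.41 ± 4.46 (hSyn1) to 10.001 ± 1.25 (DLX2.0), with a median over vector labels of 7.42 (SD over nuclei, set A). For Cdh6 it ran from 0.11 ± 0.48 (AiE0387m) to 3.55 ± 3.97 (AiE0410m), with a median over vector labels of 1.80, and for Cdh12 from 0.82 ± 2.58 (hSyn1) to 5.72 ± 3.64 (DLX2.0), with a median over vector labels of 4.59. In the Gad class, Cdh13 ran from 1.35 ± 3.32 (CMV) to 5.21 ± 4.56 (AiE0682h), with a median over vector labels of 3.68. Cdh9 there ran from 1.32 ± 2.77 (AiE0410m) to 4.46 ± 4.12 (AiE0450h), with a median over vector labels of 2.97. The median SD over nuclei of 1 label was 3.86 for Pcdh9 in the Slc17a7 class and 4.54 for Cdh13 in the Gad class. Vector labels hold different numbers of nuclei of each subclass, and the part of that in these values was not tested.

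The last comparison set library set B against set A within each class. Only 6 vector labels in the Slc17a7 class and 3 in the Gad class gave sums in both sets. Differences between sets and between vector labels therefore cannot be fully told apart. Of 11 protocadherins read in at least 20 nuclei, 9 were read in a larger share of set B than set A nuclei in the Slc17a7 class and 11 in the Gad class. The same count over all genes was not made, so this count is not read as particular to protocadherins. Thinned set B nuclei held more genes of any kind, with medians of 3105.5 against 2482 in the Slc17a7 class and 3590.5 against 2794 in the Gad class. Pcdh10 was read in 71.4% of set B and 44.0% of set A nuclei of the Slc17a7 class, and in 77.6% and 39.7% in the Gad class. Pcdh7 was read in 67.3% and 41.9% in the Slc17a7 class, and in 65.5% and 24.7% in the Gad class. Pcdh19 was read in 17.3% of set B and 1.66% of set A nuclei of the Slc17a7 class, and in 22.4% and 9.13% in the Gad class. Pcdh20 was read in 13.3% and 2.90% in the Slc17a7 class, and Pcdh8 in 29.3% and 8.68% in the Gad class. Pcdh15 was read in 20.4% of set B and 22.8% of set A nuclei of the Slc17a7 class, at 45.5 and 95.8 CPM in pooled sums (-0.99 ± 0.49, edgeR adjusted p = 0.591). For Pcdh1 and Pcdh8 in the Slc17a7 class, shares and levels went opposite ways, and no order is read from them. Pcdh1 was read in 26.5% of set B and 15.4% of set A nuclei, at 14.2 and 31.7 CPM in pooled sums, and Pcdh8 in 10.2% and 2.49% of nuclei, at 8.49 and 9.39 CPM. At 100000 reads a set B nucleus held a median of 8 of the 35 genes and 3109 genes in all, against 6 and 2594 in set A. Of 4 cytoplasmic RNAs, Rplp0, Rps3, Eef1a1 and Actb, 1 passed in the Slc17a7 class, Eef1a1 as higher in set B (1.71 ± 0.43, edgeR adjusted p = 0.0384), and 0 passed in the Gad class, where 2 had an unadjusted p under 0.05. The mean over the 4 was 4.37 in set B and 2.67 in set A on the log2(CPM + 1) scale in the Slc17a7 class. All 7 tested mitochondrial genes were higher in set B there, with a median log2 difference of 6.42, and the part of these RNAs in the cadherin values was not tested.

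In summed reads, 0 of 21 genes of the family were called in the Slc17a7 class (8 set B and 13 set A sums) and 0 of 23 in the Gad class (6 and 11 sums) by edgeR, where 1.08% of 10770 and 0.479% of 11691 genes were called. At an unadjusted p under 0.05, 3 and 2 of them differed, all 5 higher in set B, where 8.64% and 10.4% of all genes tested did, so the Gad count is near its background. DESeq2 called 1 in the Slc17a7 class (2.57% of all genes) and 2 in the Gad class (3.36%), and limma 6 (27.2%) and 2 (12.6%). Pcdh11x had between 50.7 and 320.3 CPM with a median of 109.6 in set B sums, and between 0 and 75.6 CPM with a median of 34.6 in set A sums of the Slc17a7 class (1.85 ± 0.59, edgeR adjusted p = 0.162). Pcdh7 had 94.8 to 499 CPM (median 267) in set B sums and 47.9 to 217 CPM (median 147) in set A sums of the Slc17a7 class (1.02 ± 0.35, edgeR adjusted p = 0.226). In the Gad class, Pcdh7 had 75.5 to 465 CPM (median 183) in set B sums and 19.9 to 179 CPM (median 70.2) in set A sums (1.504 ± 0.42, edgeR adjusted p = 0.0991), and it was called without AiE0410m (edgeR adjusted p = 0.0397). Pcdh10 had 66.9 to 445 CPM (median 236) in set B sums and 24.95 to 159.9 CPM (median 93.4) in set A sums of the Gad class (1.41 ± 0.44, edgeR adjusted p = 0.144). Of the 6 WAVE complex genes, partners of some delta-2 tails, Nckap1 was higher in set B in both classes, by 1.22 ± 0.27 in the Slc17a7 class and 1.95 ± 0.35 in the Gad class (edgeR adjusted p = 0.0148 and 0.0109). Whether the class differences themselves changed between set B and set A was tested as an interaction. By edgeR, 0 of 24 genes of the family were called, where 0.0889% of 13491 genes were. At an unadjusted p under 0.05, 0 of the 24 differed, where 6.93% of all genes tested did, so both counts are near their background. The smallest p was that of Pcdh11x, whose Slc17a7 minus Gad difference was higher by 1.79 ± 0.89 in set B (edgeR p = 0.0504, adjusted 0.720).

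**Figure D5:**
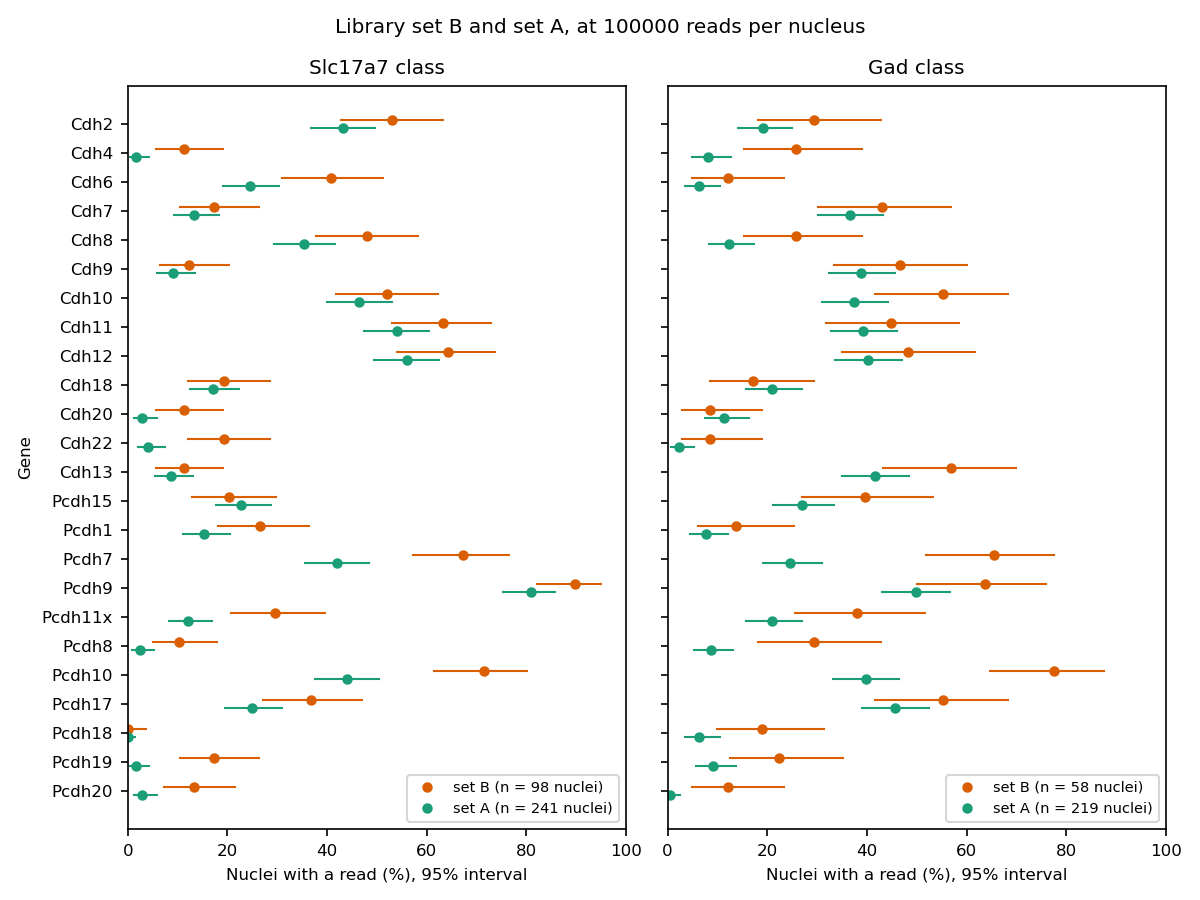
Share of nuclei with at least 1 read (%, exact 95% interval) of 24 genes in library set B and set A, in the Slc17a7 class (left panel, 98 and 241 nuclei) and the Gad class (right panel, 58 and 219 nuclei), each nucleus thinned to 100000 reads. Pcdh10 and Pcdh7 lie further right in set B in both classes.

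Reads of some of these genes cannot be told from those of an overlapping gene, since no strand setting of the counting is given. Cdh12 shares 198 exonic bases with Gm49685, which is annotated on the same strand and was itself read in 324 nuclei (5742 reads, against 31198 for Cdh12). Pcdh7 shares 2235 exonic bases with 4932441J04Rik on the opposite strand, which had 760 reads, against 32673 for Pcdh7. For Cdh8, Cdh9, Pcdh8 and Pcdh10 the exonic overlap was 23, 224, 436 and 154 bases and the overlapping gene had 0 to 259 reads.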

How the data were processed

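Single nuclei were measured by SMART-Seq v4 RNA-seq. The authors deposited raw read counts per gene and nucleus, aligned with STAR 2.7.2a to mm10 per the submitters' processing notes; the counting program, annotation, strand and intron settings were not given in the sources used here. Of 2501 columns, 1704 matched no sample and were not used. Rows without a symbol held 0.0931% of reads. Symbols were matched by Ensembl ID. No molecular identifiers are given, so reads may be PCR copies. The genes, lists and comparisons were chosen with earlier results of these data known.

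Kept nuclei held 50565 to 666436 reads. Reads were summed per vector label and class (at least 5 nuclei) or subclass (at least 3) and tested with edgeR 4.0.16 (filterByExpr, TMM, quasi-likelihood; R 4.3.3), adjusted over all genes tested, with a threshold of 0.05. Called genes of the family are named, at most 12 per comparison by smallest p; other genes given were chosen after their values were seen. DESeq2 1.42.0 and limma 3.58.1 (pseudocount 1 or 10) were alternatives. CPM and shares used numpy 2.4.6, pandas 2.3.3 and scipy 1.17.1 (exact binomial 95% intervals; a count of 0 allows 3 counts). The edgeR script was tested on simulated data.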

Additional observations from a re-analysis of the deposited data

How the results depend on the processing

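The count of 8 cadherins and protocadherins called between the Slc17a7 and Gad classes became 0 in set B alone, 0 in set C alone and 18 with limma at either pseudocount; leaving out 1 vector label gave 7 to 9. With the vector label as a replicate block it was 0, in a fit that rests on the 4 labels with both classes. Deviations of sums of the same vector label correlated at -0.0241 to 0.0383. Sums of few nuclei are noisy, so these correlations do not show that vector labels pair no samples. Within the Gad class all 11 vector labels gave sums of more than 1 subclass. The block gave 2 for Foxp2 (Cdh10 and Cdh12, both lower), 3 for Pvalb, 1 for Sst and 1 for Adarb2. The Adarb2 gene was Cdh13 (edgeR adjusted p = 0.0241) and not Cdh18 (0.0878). Without a filter on low counts the counts were 12 between the classes, where 21.7% of 20203 genes were called, 1 for Cux2, 1 for Rorb, 5 for Foxp2, 3 for Pvalb, 4 for Sst and 4 for Adarb2. Some of these rest on few sums: Cdh15 had no read in 6 of 7 Adarb2 sums, and Cdh24 in 6 of 7 Foxp2 sums. Where a count in this section has no share of all genes here or above, it is not read as particular to the family. DESeq2 called 3 for Foxp2, 3 for Sst, 3 for Adarb2, and 1 and 2 for set B in the Slc17a7 and Gad classes. All 3 sets together gave 3 for Foxp2, 2 for Pvalb, 4 for Sst and 2 for Adarb2. Limma gave 3 for Foxp2, 2 for Pvalb, 4 for Sst, 5 for Adarb2, and 6 and 2 for set B. With at least 5 nuclei per sum Pvalb had 0, and nuclei with exactly 1 subclass gene gave 3 for Pvalb and 2 for Sst. Leaving out 1 vector label gave 0 to 1 for Cux2, Rorb and Foxp2, 1 to 2 for Pvalb, 0 to 2 for Sst, 1 to 4 for Adarb2, and 0 and 0 to 1 for set B in the 2 classes. No direction reversed under these settings. Of the values of single called genes, 91 of 120 stayed past the threshold under other settings and 181 of 193 under leaving out 1 label; the cause was not tested. The minimum of 5 nuclei was not run for the glutamatergic subclasses, since it left no Foxp2 sum. Sums of 3 to 9 nuclei, no named animals and read counts without molecular identifiers limit the precision.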
